A study of Mus musculus with 53 samples.

Results

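The hedgehog pathway is described here through 9 genes in the embryonic mouse cortex: the ligand gene Shh, the receptor genes Ptch1 and Hhip, the co-receptor gene Boc, the signal transducer gene Smo, the inhibitor gene Sufu and the transcription factor genes Gli1, Gli2 and Gli3. They were chosen by their place in the pathway, with earlier results of these data known. All 9 were found by symbol among the 37991 gene IDs of the deposited column. The series holds 53 mouse RNA libraries in 19 groups, from a study of histone turnover in the brain and its effect on transcription when neurons are active. Only the embryonic cortex was used, that is whole cortical tissue of untreated C57bl/6 embryos at E16.5 (embryonic stage, in days of gestation), for which the labels list 3 libraries. The other 50 libraries, from cultured neurons and astrocytes and adult hippocampus, are not analysed here, so no condition is compared with another.

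Hedgehog signalling works by relief of a block. Without ligand, the receptor PTCH1 keeps SMO inactive, and GLI3 and part of GLI2 are cut into repressors at the primary cilium with the help of SUFU and protein kinase A. When a ligand binds PTCH1, together with a co-receptor (BOC, CDON or GAS1), SMO enters the cilium and full-length GLI proteins switch on target genes, among them Gli1, Ptch1 and Hhip, of which the latter pair limit the signal in turn. In the developing forebrain the pathway is known for setting ventral identity and the number of progenitors, while GLI3 repressor is needed for the dorsal forebrain, from which the cortex forms.

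For each gene the authors deposited 1 mean, in RPKM (reads divided by gene length in kilobases and by M, the library's reads in units of 1e+06), so no value below has an SD, no test across samples was possible and the values of single libraries are not shown. The low values of the column fell on steps that 1 read in 1 of 3 libraries would give, at 51.3, 64.8 and 71.6 M reads, when the kilobase was counted along the whole gene with its introns: 658 of 761 low values (86.5%) lay on such a step with that length and 35 of 1010 (3.47%) with exon length. The steps were found in these same low values with whole-gene length. They were not sought anew with exon length, so these shares do not compare the lengths on equal terms. Levels of different genes are therefore given on 3 scales: RPKM as deposited (per kilobase of gene span), exon RPKM (the same reads per kilobase of annotated exon, taking all counted reads to lie in exons, which was not tested) and RPM (reads per M reads, with no length). Ranges in brackets are 95% Poisson intervals from the estimated reads, and they cover counting error only. In whole tissue, fewer cells of a type and less RNA per cell cannot be told apart.

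By exon RPKM the receiving and transducing side of the pathway was present in the cortex at moderate levels. On that scale Gli1 (1.19) lay below the protein-coding median (1.58), and as deposited Gli2 (0.0868) and Gli3 (0.157) lay below it (0.214). The ligand gene Shh and the decoy receptor gene Hhip were low on both scales. Smo was the only member to reach 1 RPKM as deposited (1 of 9 members, against 18.8% of all gene IDs and 31.6% of protein-coding genes). Per kilobase of exon, 7 of 9 members reached 1, against 54.1% of protein-coding genes, and Shh and Hhip did not. The median of the 9 was 0.414 RPKM as deposited, against 0.0140 over all gene IDs and 0.214 over protein-coding genes, and 2.77 exon RPKM against 1.58 over protein-coding genes. Of the 9 members 5 lay above the protein-coding median as deposited and 6 by exon RPKM. Together the 9 genes took 208 RPM, or 0.0246% of all reads with a gene length.

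**Figure D1:**
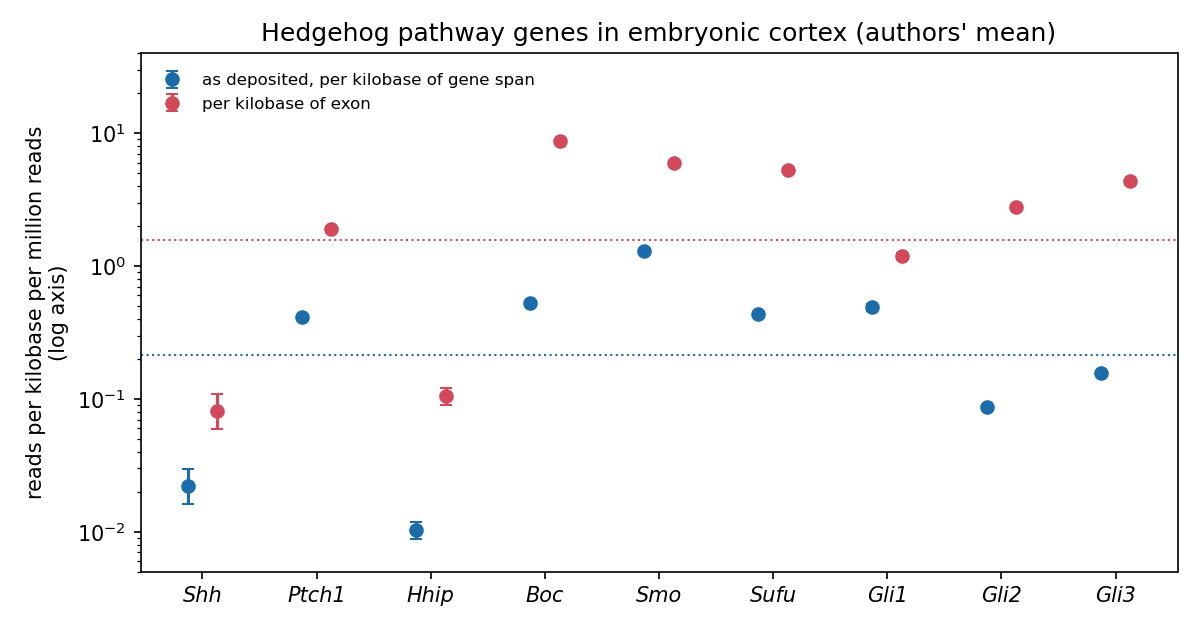
Level of each of the 9 hedgehog genes in the embryonic cortex (authors' mean of 3 libraries), as deposited per kilobase of gene span (blue) and per kilobase of exon (red), on a log axis in reads per kilobase and M reads. Bars are 95% Poisson intervals of counting error, mostly smaller than the points, and dotted lines are the medians of protein-coding genes (0.214 and 1.58). Shh and Hhip lie lowest on both scales, and the gap between the scales is widest for Gli2 and Gli3.

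Ligand genes were among the lowest of the pathway. Shh (ENSMUSG00000002633) stood at 0.0222 RPKM as deposited (0.0161 to 0.0299) and 0.0815 exon RPKM (0.0591 to 0.110), from an estimated 44 reads among the 188 M reads of the 3 libraries. That placed it at percentile 30.8 of protein-coding genes by exon RPKM. The other ligand genes were as low: Ihh, which acts in bone and gut, stood at 0.0606 exon RPKM (0.0421 to 0.0844, 35 reads), and Dhh, which acts in testis and peripheral nerve, at 0.0505 (0.0364 to 0.0684, 42 reads). Shh was 1.35 times Ihh per kilobase of exon, with an interval of 0.844 to 2.16, so their order is not settled by the reads. Its ratio to Dhh was 1.62 (1.04 to 2.53) per kilobase of exon but 0.741 (0.475 to 1.16) as deposited, so that order turns with the length used. The RefSeq span of Dhh differs by 129% from the one used, so its reads and exon RPKM, and that ratio, are uncertain. Of the exon bases of Shh, 28.3% are shared with antisense genes, and of those of Dhh 25.2% with other genes. No source used here says whether the counting used strand, so reads from both strands there cannot be told apart.

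Genes that prepare and release the ligand were uneven. Hhat, whose enzyme adds palmitate to hedgehog proteins, stood at 0.224 exon RPKM, and Disp1, whose product releases the lipid-bearing ligand from cells, was listed at 0. A listed 0 can mean no read or reads that could not be assigned. Its relatives Disp2 (10.5 exon RPKM) and Disp3 (6.02) were well detected, although the RefSeq span of Disp2 differs by -51.0% from the one used, and estimated reads scale with the span. Scube2, a secreted partner in that release, stood at 0.125 exon RPKM (97 reads), while the related genes Scube1 and Scube3 stood at 12.2 and 5.16, Scube1 being 97.7 times Scube2 (80.1 to 121). Of these 9 other ligand and release genes 4 reached 1 exon RPKM, which is near the share of protein-coding genes (54.1%).

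Receptor genes covered a wide range. Ptch1 (ENSMUSG00000021466), the receptor gene that is also a target, stood at 0.414 RPKM as deposited (0.403 to 0.426), 1.91 exon RPKM and 27.0 RPM. Ptch1 exceeded Shh by 2.07 on the log2(RPKM + 0.1) scale, where low genes are drawn together, and by 23.1 times per kilobase of exon (17.2 to 31.9). The decoy receptor gene Hhip (ENSMUSG00000064325), whose membrane protein binds and holds hedgehog ligands, was the lowest member as deposited at 0.0103 RPKM (0.00884 to 0.0119). Its exon RPKM was 0.105 (0.0898 to 0.121), from 178 estimated reads. Ptch1 was thus 40.2 times Hhip as deposited (34.6 to 47.0) and 18.2 times per kilobase of exon (15.7 to 21.3), although both encode inhibitors and both are textbook GLI targets. Hhip and Shh changed places between the scales: Hhip was 0.458 times Shh as deposited (0.328 to 0.653) and 1.27 times per kilobase of exon, with an interval of 0.908 to 1.81 that holds 1.

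The promoters of Ptch1 and Hhip, both genes of feedback inhibitors, are shown because their transcripts differ so much in level, a choice made from these values. Both come from RefSeq on build GRCm38.p6 and run from 250 bases before to 50 bases after a transcription start, on the minus strand, at chr13:63565686-63565985 for Ptch1 and chr8:80057959-80058258 for Hhip. Capitals mark the GC box GGGGCGGGG, read on either strand.
Ptch1: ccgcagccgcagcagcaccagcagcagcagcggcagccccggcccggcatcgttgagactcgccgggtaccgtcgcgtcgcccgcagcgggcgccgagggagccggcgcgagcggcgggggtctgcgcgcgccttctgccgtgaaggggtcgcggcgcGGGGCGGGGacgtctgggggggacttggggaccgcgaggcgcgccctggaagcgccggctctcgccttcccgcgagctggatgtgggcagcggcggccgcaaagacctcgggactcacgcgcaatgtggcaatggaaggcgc
Hhip: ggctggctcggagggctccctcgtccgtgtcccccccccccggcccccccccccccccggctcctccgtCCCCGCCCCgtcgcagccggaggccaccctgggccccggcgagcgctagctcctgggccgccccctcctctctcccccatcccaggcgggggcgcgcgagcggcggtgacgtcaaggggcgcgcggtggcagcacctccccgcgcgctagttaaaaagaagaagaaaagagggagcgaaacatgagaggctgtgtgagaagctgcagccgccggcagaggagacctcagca
Each window held 1 GC box, as did those of Gli3 and Sufu, that is 4 of the 6 members in the promoter table, against 11.4% of all 32851 promoters. Smo and Gli2, the other 2 members in the table, had none, and Shh, Gli1 and Boc were not matched there. G and C made up 76.3% of the Ptch1 window and 73.7% of that of Hhip, against a median of 52.7%, and CpG pairs numbered 47 and 30 against a median of 7. The GLI-binding consensus GACCACCCA, searched on both strands, was in none of the 6 windows and in 0.253% of all promoters. This says only that these letters are not in the windows shown.

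Among co-receptor genes Boc, Cdon and Gas1 were high by exon RPKM, while other genes for hedgehog-binding proteins ranged down to under 0.1. Boc (ENSMUSG00000022687), a cell-surface immunoglobulin protein that binds SHH, stood at 0.527 RPKM as deposited (0.515 to 0.539) and 8.74 exon RPKM (8.54 to 8.94), the highest member on the exon scale and at percentile 76.5 of protein-coding genes. Its relative Cdon stood at 14.5 exon RPKM, 1.66 times Boc (1.61 to 1.70). Gas1, a lipid-anchored co-receptor gene whose annotated exons fill its whole span, stood at 11.03 on both scales, 1.26 times Boc per kilobase of exon (1.22 to 1.31) and 20.9 times as deposited, but 0.839 times by reads (0.811 to 0.869). Of its exon bases 19.9% are shared with an antisense gene. All of these co-receptor genes thus lay above Ptch1 by exon RPKM, Gas1 by 5.79 times (5.58 to 6.01). Another hedgehog-binding protein, the large endocytic receptor encoded by Lrp2, stood at 0.0556 exon RPKM. Among the glypican genes, whose heparan sulfate proteins bind ligands at the cell surface, Gpc4 stood at 9.45, Gpc6 at 2.04, Gpc3 at 0.559 and Gpc5 at 0.0757 exon RPKM.

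Smo (ENSMUSG00000001761), whose membrane protein carries the signal inward, was the highest member as deposited, at 1.30 RPKM (1.27 to 1.33), and second by exon RPKM at 5.97 (5.82 to 6.12). Ptch1 was 0.319 times Smo as deposited (0.308 to 0.331) and also 0.319 times per kilobase of exon, since span exceeds exon length by 4.60 times in both genes. On the log2(RPKM + 0.1) scale the difference was -1.44. By reads alone Ptch1 was 0.805 times Smo, as its exons are longer. Sufu (ENSMUSG00000025231), whose product binds GLI proteins in the cytoplasm, stood at 0.438 RPKM as deposited (0.428 to 0.448) and 5.24 exon RPKM (5.12 to 5.36). It was 1.20 times Gli3 per kilobase of exon (1.16 to 1.24) and 2.80 times as deposited, but 0.964 times by reads (0.934 to 0.995).

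The Gli genes were ordered Gli3, Gli2, Gli1 by reads and by exon RPKM, and Gli1, Gli3, Gli2 as deposited. Gli3 (ENSMUSG00000021318), the main source of repressor, had the most reads of all members, an estimated 7840 (41.8 RPM). Spread over a gene of 267 kb these gave 0.157 RPKM as deposited (0.153 to 0.160), and over 9.59 kb of exon 4.36 exon RPKM (4.26 to 4.45). Gli2 (ENSMUSG00000048402), the main activator, had 19.0 RPM over 219 kb, which is 0.0868 RPKM as deposited (0.0840 to 0.0897) and 2.77 exon RPKM (2.68 to 2.87). Gli1 (ENSMUSG00000025407), which is itself switched on by the pathway and serves as its usual readout, had 5.94 RPM over 12.1 kb, which is 0.491 RPKM as deposited (0.462 to 0.520) and 1.19 exon RPKM (1.12 to 1.26).

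Gli3 exceeded Gli2 on every scale, by 0.46 on the log2(RPKM + 0.1) scale, 1.80 times as deposited (1.73 to 1.88), 1.57 times per kilobase of exon (1.51 to 1.63) and 2.19 times by reads. Against Gli1 the direction turned. Gli3 minus Gli1 was -1.20 on the log2(RPKM + 0.1) scale and Gli3 was 0.319 times Gli1 as deposited (0.300 to 0.340), yet 3.67 times Gli1 per kilobase of exon (3.44 to 3.91) and 7.04 times by reads (6.61 to 7.50). Gli2 likewise was 0.177 times Gli1 as deposited and 2.33 times per kilobase of exon (2.18 to 2.50). Span exceeded exon length by 27.8 times in Gli3, 32.0 times in Gli2 and 2.42 times in Gli1, against a median of 5.06 over protein-coding genes.

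**Figure D2:**
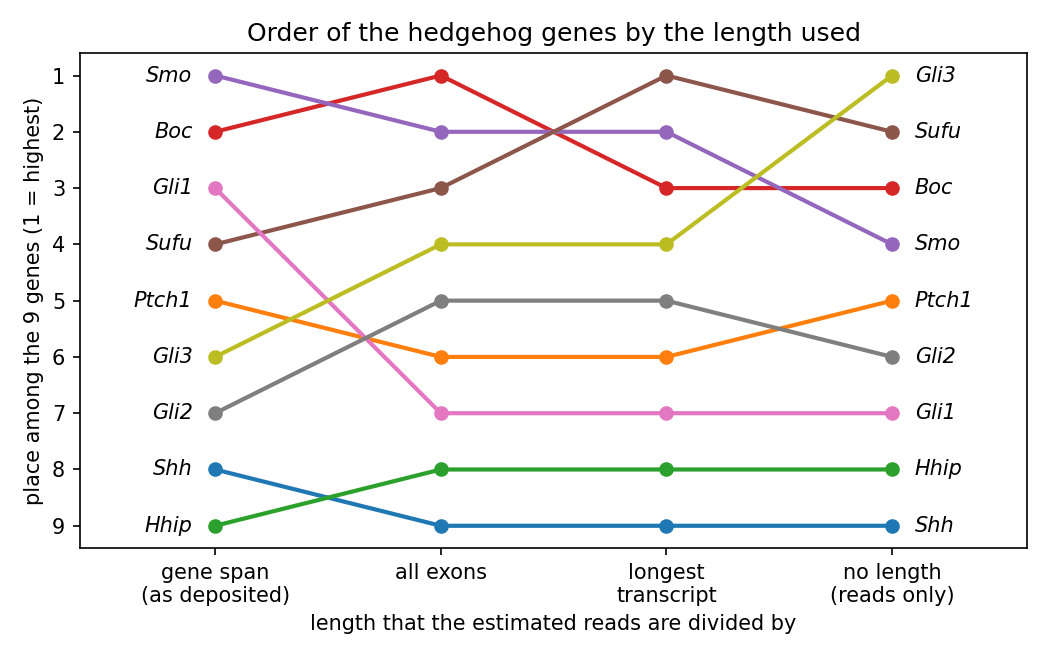
Place of each of the 9 genes from highest (1) to lowest (9) when the same estimated reads are divided by gene span (as deposited), by all annotated exons, by the longest transcript or by no length. Gli1 falls from place 3 to place 7 and Gli3 rises from place 6 to place 4 or 1, while Shh and Hhip keep the last places on all 4.

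By exon RPKM the order was Boc, Smo, Sufu, Gli3, Gli2, Ptch1, Gli1, Hhip and Shh. Of the 8 steps between neighbours 7 were larger than counting error, and the step from Hhip to Shh was not. The plot of places shows which of these orders rest on the exon annotation. Taking the longest transcript in place of all exons, Sufu (8.91), Smo (8.88) and Boc (8.74) could not be ordered, and the order from Gli3 down to Shh was the same as with all exons. Since spread between the 3 libraries is unknown, small steps such as 1.14 times between Smo and Sufu may lie within it, and by reads that step turns (0.833 times).

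Regulators of Smo and Gli were all detected. This list, like the other gene lists, was chosen with earlier results of these data known, so the shares are description only. Of 25 genes 25 reached 1 exon RPKM, against 54.1% of protein-coding genes, and 15 reached 1 RPKM as deposited, against 31.6%. Their median was 12.9 exon RPKM, against 1.58. Prkar1a, the regulatory subunit gene of protein kinase A, stood at 83.6 exon RPKM, and the casein kinase genes Csnk1e and Csnk1a1 at 55.9 and 32.0. These kinases serve many pathways. Among regulators closer to hedgehog itself, named here after their values were seen, Gpr161, the ciliary receptor gene that holds protein kinase A active, stood at 10.99 and Kif7, the ciliary kinesin gene that organises GLI proteins, at 2.14 exon RPKM. The RefSeq span of Gpr161 differs by 47.2% from the one used, and 20.3% of the exon bases of Kif7 are shared with other genes. Efcab7, which anchors the EVC complex at the cilium, was the lowest as deposited at 0.0668 RPKM and stood at 2.48 exon RPKM. Gnas, also named after its value was seen, had the lowest exon RPKM of the list (1.23), and 22.0% of its exon bases are shared with antisense genes, so its value is uncertain.

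Primary cilium genes were likewise detected throughout, with 26 of 26 at 1 exon RPKM or more, against 54.1% of protein-coding genes, and a median of 4.38 against 1.58. As deposited, 10 reached 1 RPKM, which is near the share of protein-coding genes (31.6%). Kif3a and Kif3b, the motor subunit genes of kinesin-2, stood at 51.6 and 16.6 exon RPKM, and Inpp5e, a ciliary lipid phosphatase gene that shares 20.3% of its exon bases with another gene, at 7.45. The lowest as deposited, Wdpcp, a planar polarity effector gene, stood at 1.33 exon RPKM.

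**Figure D3:**
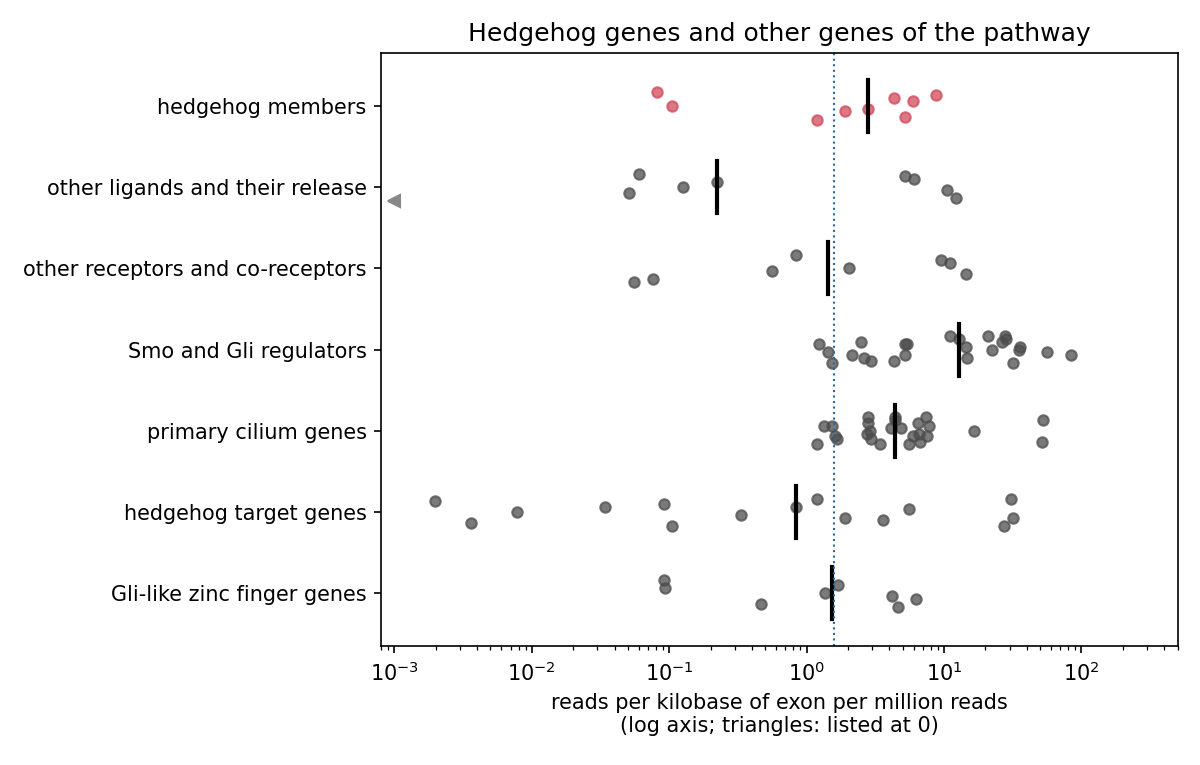
Level of each gene of the hedgehog members (red) and of 6 other pathway lists (grey) in reads per kilobase of exon and M reads, on a log axis. Black bars are list medians, the dotted line is the median of protein-coding genes (1.58) and the triangle marks a gene listed at 0. The Smo and Gli regulators and the cilium genes all lie above 1, whereas ligand, receptor and target genes spread from under 0.1 to over 10.

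Textbook target genes ranged widely in level. Beside Ptch1, Gli1 and Hhip, the proliferation genes Mycn (31.9 exon RPKM), Ccnd2 (30.7) and Ccnd1 (5.57, with 23.4% of its exon bases shared with another gene) were well detected, as was Sfrp1 (27.2), a secreted Wnt inhibitor gene. Ventral fate genes were low: Nkx2-1, of the medial ganglionic eminence, stood at 0.334 exon RPKM, Nkx2-2 at 0.0909 (49 reads), Nkx6-2 at 0.00784 (3 reads), Nkx6-1 at 0.00359 (2 reads) and Foxa2, of the floor plate, at 0.00197 (1 read). The reads of Nkx6-2, Nkx6-1 and Foxa2 lie at or under the 3 taken as the limit of detection, so no order is read among them. Foxf1, a mesenchymal target, stood at 0.0339. Olig2, which marks ventral progenitors and the oligodendrocyte lineage, was the exception among the fate genes at 3.58 exon RPKM.

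Other zinc finger genes of the GLI superfamily lay both above and below the Gli genes. Glis2 stood at 6.24 exon RPKM, 1.43 times Gli3 on that scale (1.38 to 1.48) but 0.654 times by reads (0.631 to 0.677). Zic1 stood at 4.65 and Zic2 at 4.18, while Glis1, the lowest as deposited, stood at 0.0914. Of these 8 genes 5 reached 1 exon RPKM, which is near the share of protein-coding genes (54.1%).

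Marker genes placed these values in the tissue. Their lists too were chosen with earlier results of these data known. All 5 markers of cortical excitatory neurons (median 55.4 exon RPKM), all 9 of radial glia (13.7), all 8 of interneurons (6.99), all 5 of Cajal-Retzius cells (3.55) and all 5 of endothelial cells (2.85) reached 1 exon RPKM, against 54.1% of protein-coding genes. As deposited, 5, 8, 5, 0 and 1 of them, in that order, reached 1 RPKM, against 31.6% of protein-coding genes. Oligodendrocyte precursor markers reached 1 exon RPKM in 4 of 5 (1.99). In contrast, none of the 5 floor plate and midline markers did (from 0 to 0.120 exon RPKM, with Foxa1 and Nkx2-9 listed at 0), nor any of the 5 choroid plexus markers (0.00460 to 0.511) or the 5 meningeal markers (0.119 to 0.436). Of the ventral telencephalon markers, Nkx2-1 stood at 0.334 exon RPKM and Gsx2 was listed at 0. Nkx2-1, Foxa2 and Olig2 stand in both the target and the marker lists. Shh, at 0.0815 exon RPKM, stood within the range of the choroid plexus markers. Of the floor plate and midline markers only Lmx1a (0.120) lay above it, and the others lay below. Which cells gave the Shh reads was not tested.

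**Figure D4:**
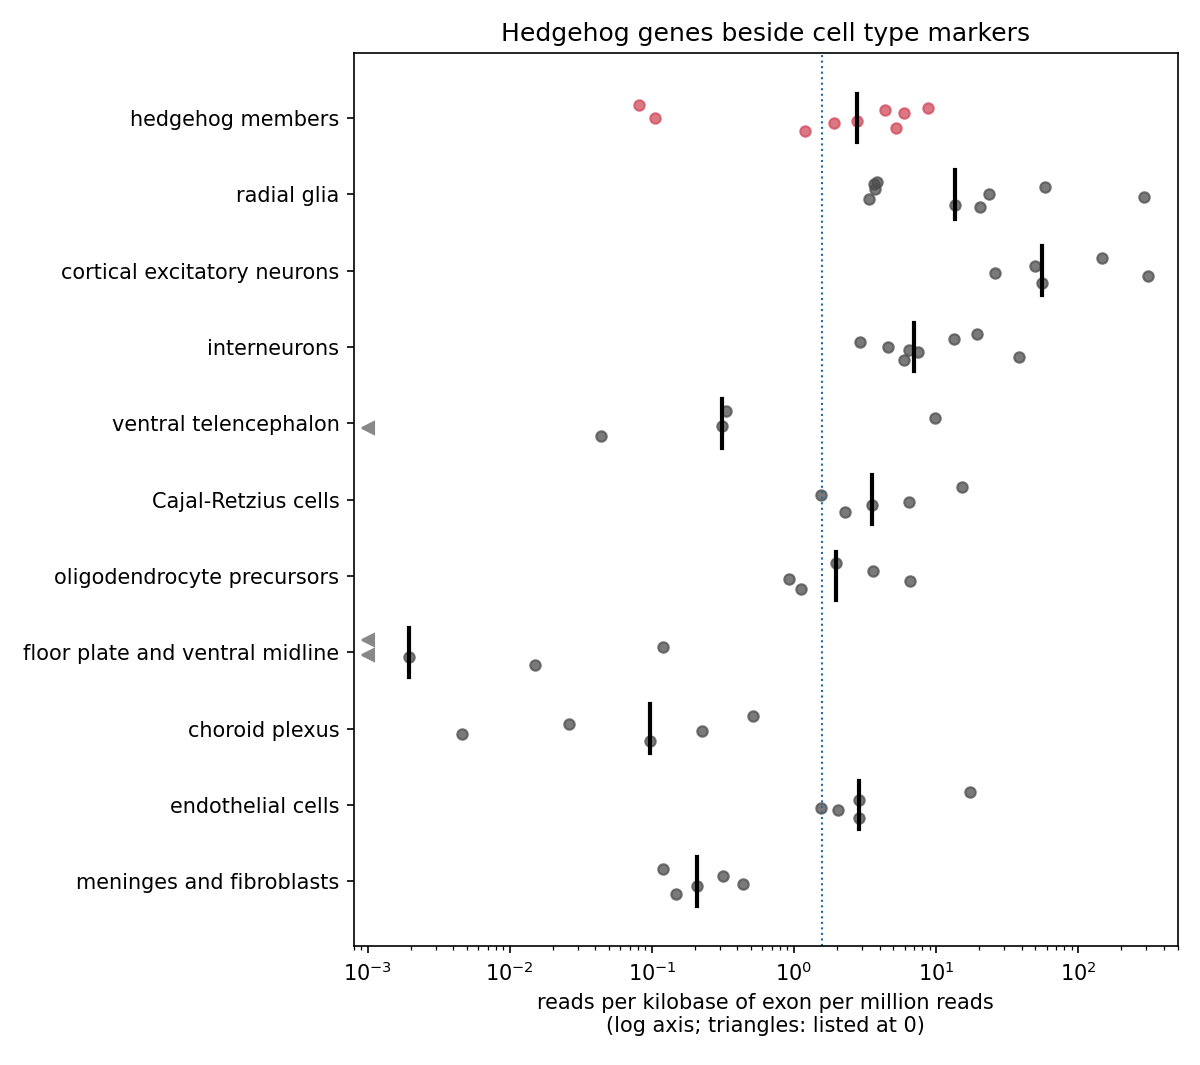
Level of each hedgehog gene (red) and of the markers of 10 cell types (grey) in reads per kilobase of exon and M reads, on a log axis. Black bars are medians, the dotted line is the median of protein-coding genes (1.58) and triangles mark genes listed at 0. Shh and Hhip lie within the range of the choroid plexus markers, and of the floor plate markers only Lmx1a (0.120) lies above them. Both points lie below the meningeal markers, but the intervals of Hhip (0.0898 to 0.121) and Col1a1 (0.101 to 0.140) overlap. The other 7 hedgehog genes lie between 1.19 and 8.74.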

How the data were processed

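Trizol and RNeasy Micro columns were used for the RNA, and TruSeq libraries were sequenced on a HiSeq machine, per the labels' protocols. The deposited RPKM values are 1 column that the authors averaged over the embryonic cortex group, to which the labels assign 3 libraries, and no source used here ties them to separate animals. HTSeq 0.6.0, DESeq 1.16.0 and Cuffdiff 2.0.2, with the aligners TopHat2 2.0.9 and Bowtie2 2.1.0 and the build mm9 (NCBIM37), are listed without their roles, per the submitters' processing notes. Symbols, spans and exon lengths came from GENCODE M21, a later build; RefSeq spans of the 9 members differed by -3.27% to 0.390%, and among other named genes most for Dhh (129%), Disp2 (-51.0%) and Gpr161 (47.2%). Spans of the authors' own annotation were not used here.

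Library depths were read from low values of multi-exon genes between 0.003 and 0.0075 RPM that lay within 0.5% of a peak. The procedure was also run on simulated libraries made with these same spans. That run cannot test whether the authors used span or exon length, nor whether their spans were the same. Reads were estimated as RPKM times span times summed depth. Ratios have 95% exact conditional binomial intervals, which cover counting error only. The limit of detection, 3 reads, is 0.0160 RPM. Ventral marker Lhx8 was not matched.

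The members and lists were chosen with earlier results of these data known. The rule was to name all members, all ligand, receptor and target genes, and of other pathway lists the 3 highest and the lowest deposited value above 0; further genes are said to be so. Some genes of these lists are not reported here. The alternatives were other thresholds, pseudocounts of 1 and 0.01 in place of 0.1, exon length, RPM, and, added after seeing the data, the longest transcript. Analyses used Python 3.11.15, numpy 2.4.6, pandas 2.3.3, scipy 1.17.1 and matplotlib 3.10.9.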

Additional observations from a re-analysis of the deposited data

How the results depend on the processing

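The number of members at the limit moved from 1 to 6 at 0.1 RPKM, 2 at 0.5 RPKM, 0 at 10 RPKM, and 7 with exon length or, chosen after seeing the data, the longest transcript. Their median moved from 0.414 RPKM to 0.285 without Smo, the highest, to 1.30 with members at 1 RPKM or more, which leaves Smo alone, and to 2.77 per kilobase of exon and 2.87 per kilobase of the longest transcript. On the log2 scale Gli3 minus Gli1 reversed from -1.20 to 1.79 with exon length, 2.79 by RPM and 1.74 with the longest transcript, since span exceeds exon length far more in Gli3. With a pseudocount of 1 it was -0.37 and with 0.01 it was -1.59; a pseudocount changes the size of such a difference and cannot change its sign. Gli3 minus Gli2 (0.46), Ptch1 minus Smo (-1.44) and Ptch1 minus Shh (2.07) kept their direction in the 3 settings that change the length. In the order pseudocount 1, pseudocount 0.01, exon length, RPM and longest transcript, they were 0.090, 0.78, 0.63, 1.13 and 0.81 for Gli3 minus Gli2, -0.70, -1.62, -1.60, -0.31 and -1.73 for Ptch1 minus Smo, and 0.47, 3.72, 3.47, 6.35 and 3.90 for Ptch1 minus Shh. No replicate could be left out and no paired analysis was possible because 1 column holds the mean of the 3 libraries. Depth limits Shh, Hhip, the other ligands, the lowest targets and other genes with few reads, such as Lrp2 (174), Scube2 (97), Gpc5 (63) and Glis1 (63).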
